A study of Mus musculus with 10 samples.

Results

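Antioxidant defence genes of the mouse retina were followed through treatment with vigabatrin. The 10 genes Sod1, Sod2, Cat, Gpx1, Gpx4, Gclc, Gclm, Txnrd1, Nqo1 and Hmox1 were picked by symbol from a table of 35275 genes. Each symbol matched 1 gene of the table, and all 10 were among the 17435 genes kept by a filter on low counts. Of the 10 libraries, 5 came from retinas of C57BL/6 mice treated for 11 days with vigabatrin, 140 mg/kg/day, which a subcutaneous osmotic pump released, and 5 came from retinas of vehicle mice of the same strain. All mice were 10 to 12 weeks old. The titles of the vehicle libraries call them untreated, while their treatment label reads vehicle. Vigabatrin blocks GABA transaminase for good and is given against seizures, and loss of peripheral vision is its known adverse effect in patients. Whole retina was used, so every value is an average over rods, cones, inner neurons, glia and any attached tissue. Whether every library is a different mouse is not stated, so the p-values below measure the spread between libraries, which may be technical.

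Retinal photoreceptors use much oxygen and hold membranes rich in polyunsaturated lipids, which makes them prone to oxidation by reactive oxygen species. Superoxide dismutases turn superoxide into hydrogen peroxide, and catalase, glutathione peroxidases and the thioredoxin system remove peroxides. Glutathione, the small thiol that the peroxidases consume, is made from glutamate and cysteine by glutamate-cysteine ligase and then glutathione synthetase. Many of these genes are induced by the transcription factor Nrf2, encoded by Nfe2l2, which Keap1 holds low until electrophiles or oxidants modify it. Nrf2 binds the antioxidant response element together with small Maf proteins, and Bach1 competes for the same element.

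The core of that element, TGACNNNGC, was searched for on both strands in RefSeq promoter windows of build GRCm38.p6, each running from 250 bases before a transcription start to 50 bases after it. Windows were found for 8 of the 10 genes, 13 windows in all, and Gclc and Hmox1 had no window. A match was present in 3 windows, those of Gclm, Txnrd1 and Sod1, 1 in each gene, and no other motif was searched for. Of all 32851 windows, 12.4% held a match. Gclm and Txnrd1 are well known targets of Nrf2, and Sod1 is the second most abundant of the 10 transcripts. No match was found in the windows of Gpx4, the most abundant, or of Nqo1. The 3 windows were picked for display because they hold a match. They read 5′ to 3′ on the plus strand, with the match in capitals, which in all 3 lies on the opposite strand and so reads GCNNNGTCA.
Gclm promoter, chr3:122245307-122245606: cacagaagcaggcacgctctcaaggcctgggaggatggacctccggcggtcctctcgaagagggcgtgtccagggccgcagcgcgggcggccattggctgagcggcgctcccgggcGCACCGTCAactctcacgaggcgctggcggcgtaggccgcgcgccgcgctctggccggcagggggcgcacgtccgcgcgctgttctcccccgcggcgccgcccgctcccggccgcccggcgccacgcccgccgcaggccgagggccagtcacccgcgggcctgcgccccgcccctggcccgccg
Txnrd1 promoter, chr10:82858956-82859255: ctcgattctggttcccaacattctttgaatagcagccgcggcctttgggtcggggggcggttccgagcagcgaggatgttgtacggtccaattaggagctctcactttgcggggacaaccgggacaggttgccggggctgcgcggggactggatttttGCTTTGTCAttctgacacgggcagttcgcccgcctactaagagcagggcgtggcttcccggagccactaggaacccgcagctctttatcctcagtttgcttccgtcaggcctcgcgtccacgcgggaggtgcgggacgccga
Sod1 promoter, chr16:90220512-90220811: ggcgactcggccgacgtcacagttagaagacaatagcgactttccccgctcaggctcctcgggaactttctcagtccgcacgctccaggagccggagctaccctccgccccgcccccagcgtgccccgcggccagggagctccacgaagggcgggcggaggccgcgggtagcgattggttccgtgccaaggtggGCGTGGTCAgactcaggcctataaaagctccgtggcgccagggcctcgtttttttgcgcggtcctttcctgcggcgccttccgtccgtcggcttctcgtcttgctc
The match begins 134 bases before the RefSeq start of Gclm, 92 bases before that of Txnrd1 and 56 bases before that of Sod1. For Sod1 that start, 90220762, differs from the start of the gene in the count table, 90220742, while for Gclm and Txnrd1 they are the same. These are matches of letters in a window, and no binding was measured.

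Levels of different genes were compared as CPM, the counts of a gene scaled to library size by the TMM method of edgeR, per kilobase of the deposited gene length. Gpx4, the peroxidase that reduces lipid hydroperoxides in membranes, was the most abundant at 259 ± 14.0 CPM per kilobase in vigabatrin retina and 274 ± 13.7 in vehicle retina (SD, n = 5 each). Its mean over all libraries exceeded that of 99.4% of tested genes. Sod1, the cytosolic copper and zinc superoxide dismutase, followed at 109 ± 11.4 and 120.3 ± 9.80 CPM per kilobase in vigabatrin and vehicle retina, above 98.0% of tested genes. Sod2, the manganese superoxide dismutase of mitochondria, had 31.5 ± 1.14 and 30.0 ± 1.15 CPM per kilobase in vigabatrin and vehicle retina.

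The middle of the order was held by Gpx1, the soluble glutathione peroxidase, at a mean of 21.4 CPM per kilobase over all libraries, Txnrd1, the cytosolic thioredoxin reductase, at 15.0, and Gclc, the catalytic subunit of glutamate-cysteine ligase, at 14.9. Cat, the catalase of peroxisomes, had 8.95 CPM per kilobase and Gclm, the modifier subunit of the ligase, 8.38. Hmox1, the inducible heme oxygenase, and Nqo1, a quinone reductase, were the scarcest at 2.29 and 1.97 CPM per kilobase, which placed them above only 33.3% and 31.1% of tested genes. Gpx4 thus stood 135-fold above Nqo1 per length. Within single libraries the order held in 10 of 10 for every pair of neighbours except Txnrd1 over Gclc, which held in 5 of 10, and Hmox1 over Nqo1, which held in 6 of 10. Those 2 pairs did not differ beyond their spread. Ranges over libraries also overlapped for Sod2 with Gpx1, Gpx1 with Txnrd1, and Cat with Gclm.

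**Figure D1:**
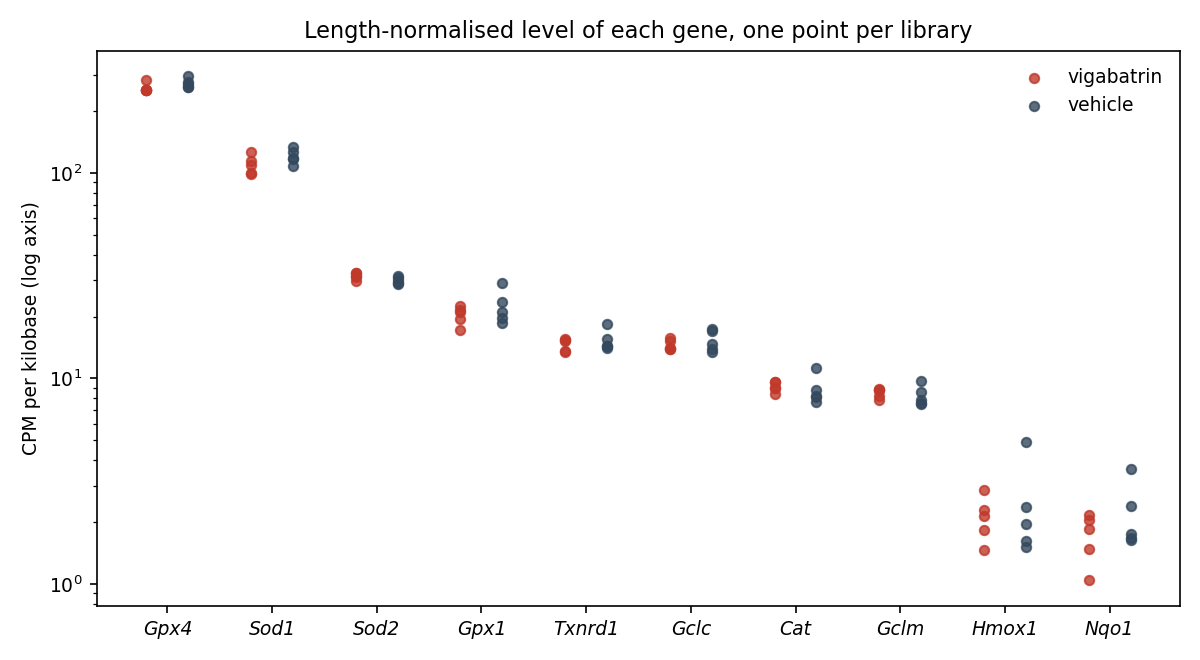
CPM per kilobase on a log axis for the 10 genes in order of mean level, with 1 point per library, vigabatrin left and vehicle right of each gene. Gpx4 and Sod1 lie above 98 CPM per kilobase in every library, and Hmox1 and Nqo1 lie below 5 in every library.

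No difference between vigabatrin and vehicle retina passed the test for any of the 10 genes. In edgeR's quasi-likelihood test with Benjamini-Hochberg adjustment over all tested genes, 0 of 10 passed an adjusted p of 0.05, against a background of 0.00574% of tested genes, which is 1 gene. At an unadjusted p under 0.05 there were also 0 of 10 in this fit, where 7.36% of tested genes were found. DESeq2's Wald test called 0 of 10 (background 0.519%) and limma-voom with quality weights 0 of 10 (background 0.0172%). The 2 groups overlapped for all 10 genes, as they did for all but 1.48% of tested genes. The median log2 fold change, vigabatrin over vehicle, was -0.076 over the 10 genes and -0.001 over all tested genes, with 7 of 10 below 0 against 8817 of 17435. The title numbers of all 5 vigabatrin libraries lie above 2000, as does that of 1 vehicle library, 2345, while those of the other 4 vehicle libraries lie below it, and what the numbers stand for is not given. With that range as a term of the fit, which sets vigabatrin against vehicle 2345 alone, the median of the 10 genes was 0.069, with 3 of 10 below 0 and 0 of 10 called. In whole tissue, fewer cells of a type and less RNA per cell cannot be told apart.

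**Figure D2:**
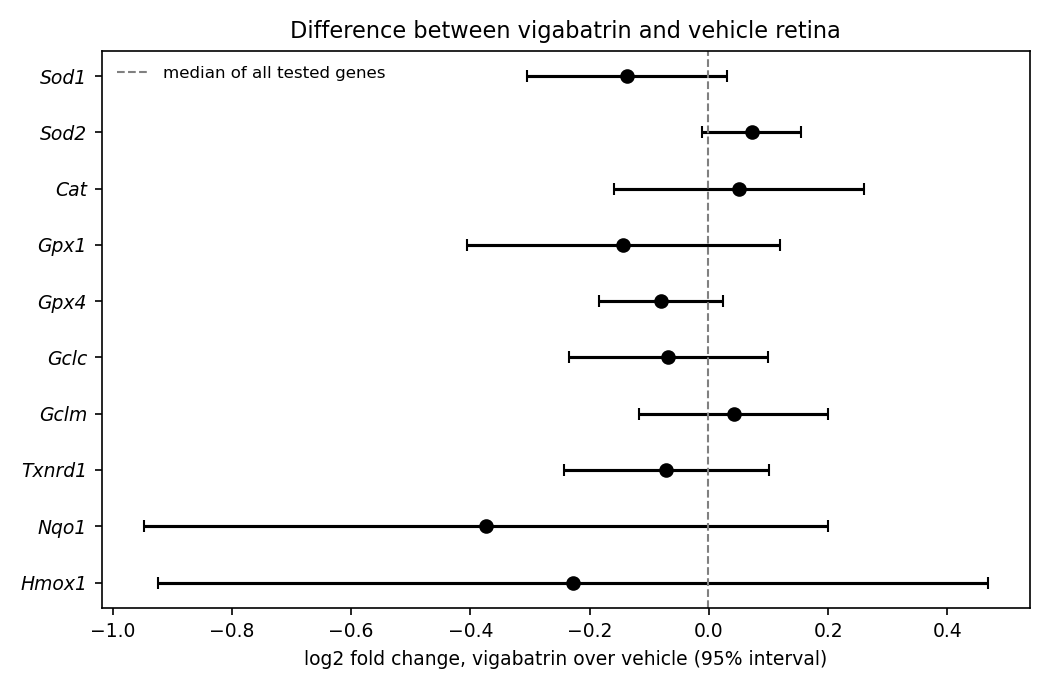
Log2 fold change of each gene, vigabatrin over vehicle, with its 95% interval from edgeR and the median of all tested genes as a dashed line. All 10 intervals include 0, and those of Nqo1 and Hmox1 are the widest.

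In the sentences on single genes, values are CPM, with vigabatrin libraries in the order 2344, 2347, 2349, 2428 and 2429 and vehicle libraries in the order 832, 835, 1580, 1582 and 2345, the numbers of their titles. Sod1 (ENSMUSG00000022982, mm10 chromosome 16, 90220742 to 90226322, plus strand) had 73.3, 81.7, 64.5, 63.6 and 70.3 in vigabatrin retina, against 76.1, 85.8, 75.4, 81.8 and 69.3 in vehicle retina. The 2 lowest of the 10 libraries were vigabatrin 2349 and 2428, and the others were mixed. The group means were 70.7 ± 7.39 CPM after vigabatrin and 77.7 ± 6.33 CPM in vehicle (SD, n = 5 each), a log2 fold change of -0.14 with a standard error of 0.076 (edgeR, adjusted p = 0.744). Its 95% interval covers folds of 0.810 to 1.02.

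Sod2 (ENSMUSG00000006818, chromosome 17, 13007839 to 13018119, plus strand) had 120.2, 119, 124, 125 and 114 CPM in vigabatrin retina, against 110.5, 117, 114, 111 and 121 CPM in vehicle retina. Vigabatrin 2349 and 2428 were above every vehicle library, and vehicle 2345 was next. Of the 10 genes it had the smallest p, with a log2 fold change of 0.071 (SE 0.038, edgeR adjusted p = 0.724) and an exact two-sided permutation p of 0.0794, where 5 against 5 libraries allow no p below 0.00794. The 95% interval covers folds of 0.992 to 1.11, so that Sod2 had the narrowest bounds of the 10. The ratio of Sod1 to Sod2 per length was 3.48 ± 0.439 in vigabatrin libraries and 4.02 ± 0.392 in vehicle libraries (SD, n = 5 each), with overlapping ranges.

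Among the enzymes that remove peroxide, Gpx4 (ENSMUSG00000075706, chromosome 10, 80047166 to 80056439, plus strand) had 251, 283, 251, 253 and 251.6 CPM in vigabatrin retina, against 276, 261, 294, 270.2 and 261 CPM in vehicle retina. All vigabatrin libraries but 2347 lay below every vehicle library, and 2347 lay above 4 of the 5. The means of 258 ± 13.9 CPM and 273 ± 13.7 CPM (SD, n = 5 each) in vigabatrin and vehicle retina gave a log2 fold change of -0.081 (SE 0.047, edgeR adjusted p = 0.754). Without vigabatrin 2347 the log2 fold change was -0.12, and without vehicle 1580 it was -0.053. The 95% interval of folds was 0.880 to 1.02. A pseudogene named Gpx4-ps2 is annotated on chromosome 10 in GENCODE M21, and no gene of that name is in the count table. How reads shared with it were handled is not given in the sources used here.

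Gpx1 (ENSMUSG00000063856, chromosome 9, 108339080 to 108340338, plus strand) had 23.3, 22.3, 18.0, 20.2 and 21.9 CPM in vigabatrin retina, against 21.9, 30.4, 20.6, 24.5 and 19.3 CPM in vehicle retina. Vehicle 835 was the highest library by a wide gap and vigabatrin 2349 the lowest. The log2 fold change was -0.14 (SE 0.12, edgeR adjusted p = 0.839), and -0.031 without vehicle 835. Gpx4 exceeded Gpx1 per length 12.8 ± 1.29-fold in vigabatrin libraries and 12.6 ± 2.37-fold in vehicle libraries (SD, n = 5 each), with the lowest ratio, 8.99, in vehicle 835.

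Cat (ENSMUSG00000027187, chromosome 2, 103453849 to 103485160, minus strand) had 23.4, 25.1, 23.4, 22.0 and 25.1 CPM in vigabatrin retina, against 21.4, 29.2, 20.1, 23.1 and 21.2 CPM in vehicle retina. Vehicle 835 was again the highest, while the other 4 vehicle libraries lay below the vigabatrin median of 23.4 CPM. The log2 fold change was 0.050 (SE 0.095, edgeR adjusted p = 0.942), 0.15 without vehicle 835 (adjusted p = 0.451) and 0.0039 without vehicle 1580.

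The 2 subunits of glutamate-cysteine ligase, whose reaction limits the rate of glutathione synthesis, had unlike signs. Gclc (ENSMUSG00000032350, chromosome 9, 77754535 to 77794485, plus strand) had 51.9, 47.5, 47.7, 48.3 and 54.0 CPM in vigabatrin retina, against 50.1, 59.2, 47.8, 58.1 and 46.1 CPM in vehicle retina. Its 2 highest values were in vehicle 835 and 1582 and its lowest in vehicle 2345, so the vigabatrin values fell inside the vehicle range. The log2 fold change was -0.068 (SE 0.076, edgeR adjusted p = 0.895), -0.019 without vehicle 835, -0.031 without vehicle 1582 and -0.11 without vehicle 2345.

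Gclm (ENSMUSG00000028124, chromosome 3, 122245557 to 122269984, plus strand), whose promoter window is printed above, had 42.3, 42.3, 39.7, 38.1 and 43.2 CPM in vigabatrin retina, against 38.0, 47.0, 36.8, 41.5 and 36.5 CPM in vehicle retina. The highest library was vehicle 835, and the 3 lowest were vehicle 2345, 1580 and 832. Its log2 fold change was 0.042 (SE 0.072, edgeR adjusted p = 0.933). With 1 library left out it ranged from 0.0093 without vehicle 2345 to 0.11 without vehicle 835. An antisense gene, Gm17494, overlaps Gclm with 38 to 81 counts per library, against 1321 to 2339 for Gclm, and the strand setting of the counting is not given in the sources used here. The ratio of Gclc to Gclm per length, which no library scaling alters, was 1.73, 1.59, 1.70, 1.79 and 1.77 in vigabatrin libraries, against 1.86, 1.78, 1.84, 1.98 and 1.79 in vehicle libraries. Its means were 1.72 ± 0.081 after vigabatrin and 1.85 ± 0.079 in vehicle (SD, n = 5 each), and only vigabatrin 2428 reached into the vehicle range.

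Txnrd1 (ENSMUSG00000020250, chromosome 10, 82859206 to 82897724, plus strand), which keeps thioredoxin reduced and also carries the motif in 1 of its 3 promoter windows, had 53.0, 52.4, 45.9, 46.4 and 51.7 CPM in vigabatrin retina. Vehicle retina had 49.1, 62.8, 47.9, 53.4 and 48.9 CPM. Vehicle 835 was the highest and vigabatrin 2349 and 2428 were the lowest. The log2 fold change was -0.071 (SE 0.078, edgeR adjusted p = 0.895), and 0.002 without vehicle 835.

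Nqo1 (ENSMUSG00000003849, chromosome 8, 107388225 to 107403206, minus strand) had 3.37, 2.87, 1.62, 2.29 and 3.19 CPM in vigabatrin retina, against 2.55, 5.64, 2.60, 3.74 and 2.73 CPM in vehicle retina. The 2 lowest libraries were vigabatrin 2349 and 2428 and the 2 highest were vehicle 835 and 1582. With a log2 fold change of -0.37 (SE 0.26, edgeR adjusted p = 0.797), Nqo1 had the largest difference of the 10 and an interval of folds from 0.518 to 1.15. The value was -0.12 without vehicle 835. Counts for Nqo1 were 84 to 266 per library, which leaves a counting error of about 8.93%, against a spread of 26.9% over vigabatrin libraries and 38.1% over vehicle libraries.

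Hmox1 (ENSMUSG00000005413, chromosome 8, 75093591 to 75100596, plus strand), which is induced by heme and by oxidants, had 4.58, 3.44, 2.93, 2.36 and 3.67 CPM in vigabatrin retina, against 2.61, 7.89, 2.42, 3.80 and 3.15 CPM in vehicle retina. Vehicle 835 stood 2.63-fold above the mean of the other 4 vehicle libraries, 2.99 ± 0.620 CPM (SD, n = 4), and the rest of the vehicle and vigabatrin libraries were interleaved. The log2 fold change was -0.23 (SE 0.32, edgeR adjusted p = 0.920), with folds of 0.527 to 1.38 inside the 95% interval. Without vehicle 835 it was 0.18, and without vehicle 1580 it was -0.36.

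**Figure D3:**
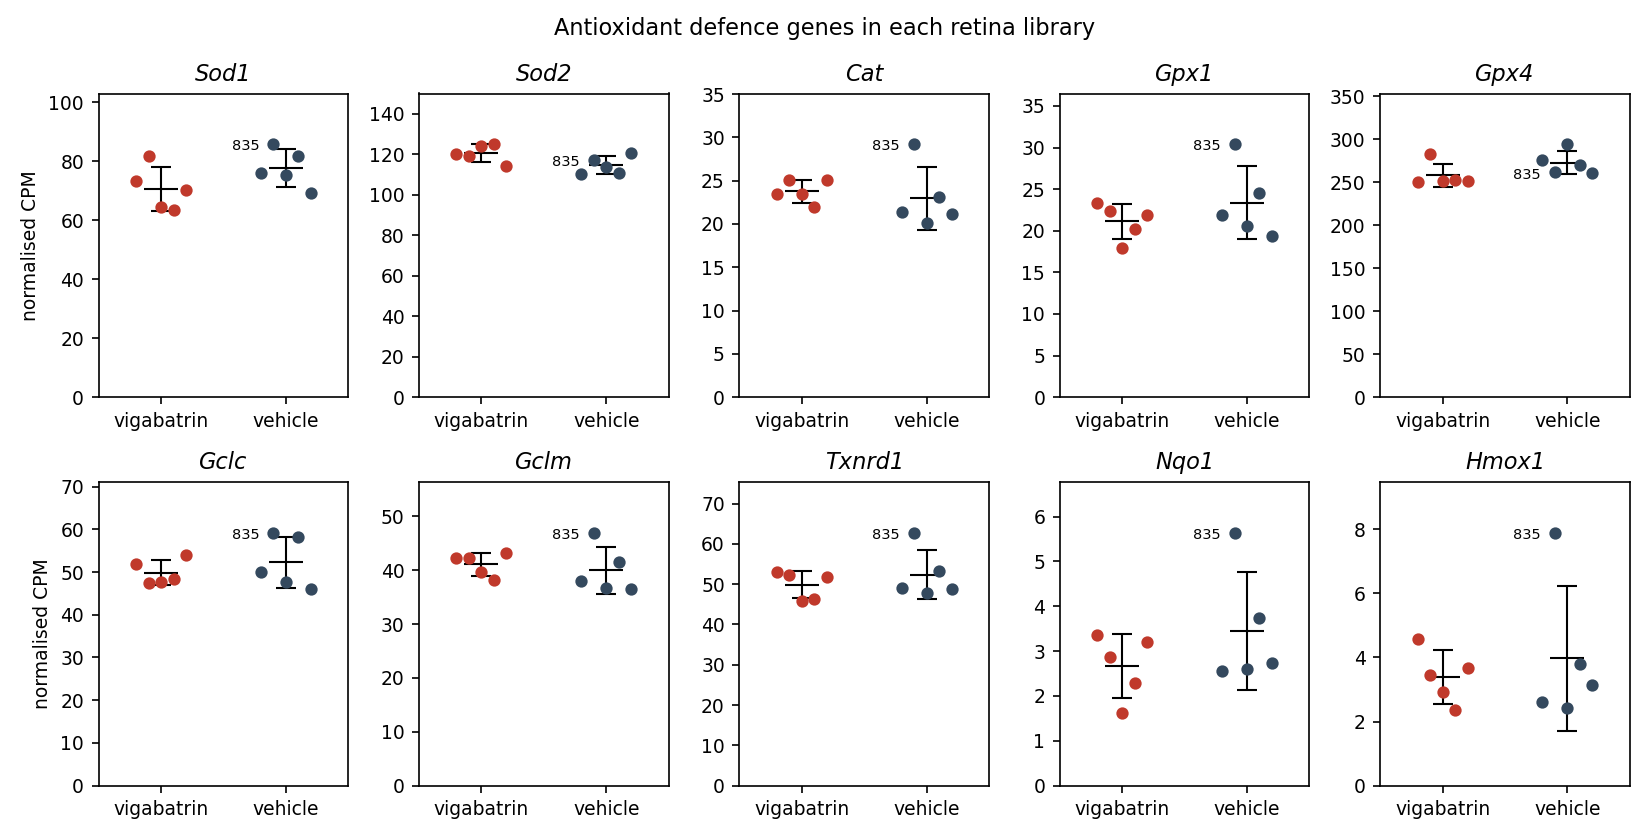
CPM of each gene in the 5 vigabatrin and 5 vehicle libraries, with the mean and SD as black bars and vehicle library 835 labelled. Every axis starts at 0, the groups overlap in all panels, and vehicle 835 is the highest point for 8 of the 10 genes.

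The same library topped most of the genes. Vehicle 835 held the highest CPM of all 10 libraries for Sod1, Cat, Gpx1, Gclc, Gclm, Txnrd1, Nqo1 and Hmox1, 8 of the 10 genes, while Sod2 was highest in vigabatrin 2428 and Gpx4 in vehicle 1580. Relative to the mean of the other 4 vehicle libraries it was 1.94-fold higher for Nqo1, 1.41-fold for Gpx1, 1.36-fold for Cat, 1.26-fold for Txnrd1 and 1.23-fold for Gclm. For Gclc it was 1.17-fold higher, for Sod1 1.13-fold and for Sod2 1.03-fold, and Gpx4 was at 0.949 of that mean. Vigabatrin 2349 held the lowest values of Gpx1, Nqo1 and Txnrd1, and vigabatrin 2428 those of Sod1 and Hmox1. Without vehicle 835 the median log2 fold change of the 10 genes was -0.008, with 5 of 10 below 0 and again 0 of 10 called.

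Transcripts of the pigment epithelium and choroid, the tissue behind the retina, were also most abundant in that library. Their 16 markers, none at 0, summed to 354 to 1485 CPM in vigabatrin libraries (median 614). In vehicle libraries the sums were 397 to 3075 CPM (median 695), with 3075 in vehicle 835 and 1530 in vehicle 1582. Of the 16 markers, 15 had a log2 fold change below 0, vigabatrin over vehicle, with a median of -1.04 and 0 called. At an unadjusted edgeR p under 0.05, 4 of the 16 (25%) were lower after vigabatrin and 0 higher. Of all tested genes, 3.69% were lower at that p. One of the 16, Trpm1, is also expressed by bipolar cells of the retina. Rpe65, the retinoid isomerase of pigment epithelium, had 0.404 to 4.69 CPM in vigabatrin libraries, against 33.6 CPM in vehicle 835, 16.2 CPM in vehicle 832 and 0.616 to 1.45 CPM in the other vehicle libraries. Rpe65 and the sum did not go together in every library. Vigabatrin 2344 had a sum of 1485 CPM with the lowest Rpe65, and vehicle 832 a sum of 695 CPM. Relative to their own means, the 10 genes had a median log2 value of 0.26 in vehicle 835 and 0.053 in vehicle 1582. That median was 0.041 in vigabatrin 2344 and -0.074 in vehicle 832. The 12 microglia and macrophage markers, none at 0, summed to 37.7 to 58.3 CPM in vigabatrin libraries and 44.5 to 60.1 CPM in vehicle libraries, again highest in vehicle 835. The 10 markers of Müller glia, the radial glia of the retina, summed to 5055 to 5867 CPM in vigabatrin libraries and 5201 to 6530 CPM in vehicle libraries, and the highest sum was that of vehicle 835. Cornea markers, of which 8 of 9 were in the table, summed to 6.18 to 36.0 CPM in vigabatrin libraries (median 6.42). In vehicle libraries they summed to 5.19 to 37.5 CPM (median 22.0), with the top sum again in vehicle 835. Of the 5 cornea markers tested, 4 were below 0, with a median log2 fold change of -1.55 and 0 called. At an unadjusted edgeR p under 0.05, 3 of these 5 were lower after vigabatrin and 1 was higher. The 7 blood cell markers summed to 31.8 to 226 CPM in vigabatrin libraries and 55.0 to 328 CPM in vehicle libraries. Endothelium markers, 8 in number, summed to 397 to 455 CPM in vigabatrin libraries and 345 to 425 CPM in vehicle libraries. In vehicle 835 the blood cell sum was 126 CPM and the endothelium sum 383 CPM, neither of them the highest. The part of any of these cell types or tissues in the values of the 10 genes was not tested. Lens transcripts took more than 1% of counts in vigabatrin 2344 and 2429 and vehicle 835 and 1582, and 1 of the 20 lens markers, Lim2, was at 0 throughout. With the lens and the pigment epithelium levels as terms of the fit, the median log2 fold change of the 10 genes was -0.012 and Hmox1 measured 0.087. That fit cannot tell tissue levels apart from other traits of vehicle 835, which had the highest pigment epithelium sum and was lens-rich. The part of lens and pigment epithelium transcripts in the values of the 10 genes was not tested. Rod markers, which define the tissue, summed to 65651 to 71977 CPM in vigabatrin libraries and 66882 to 72891 CPM in vehicle libraries.

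**Figure D4:**
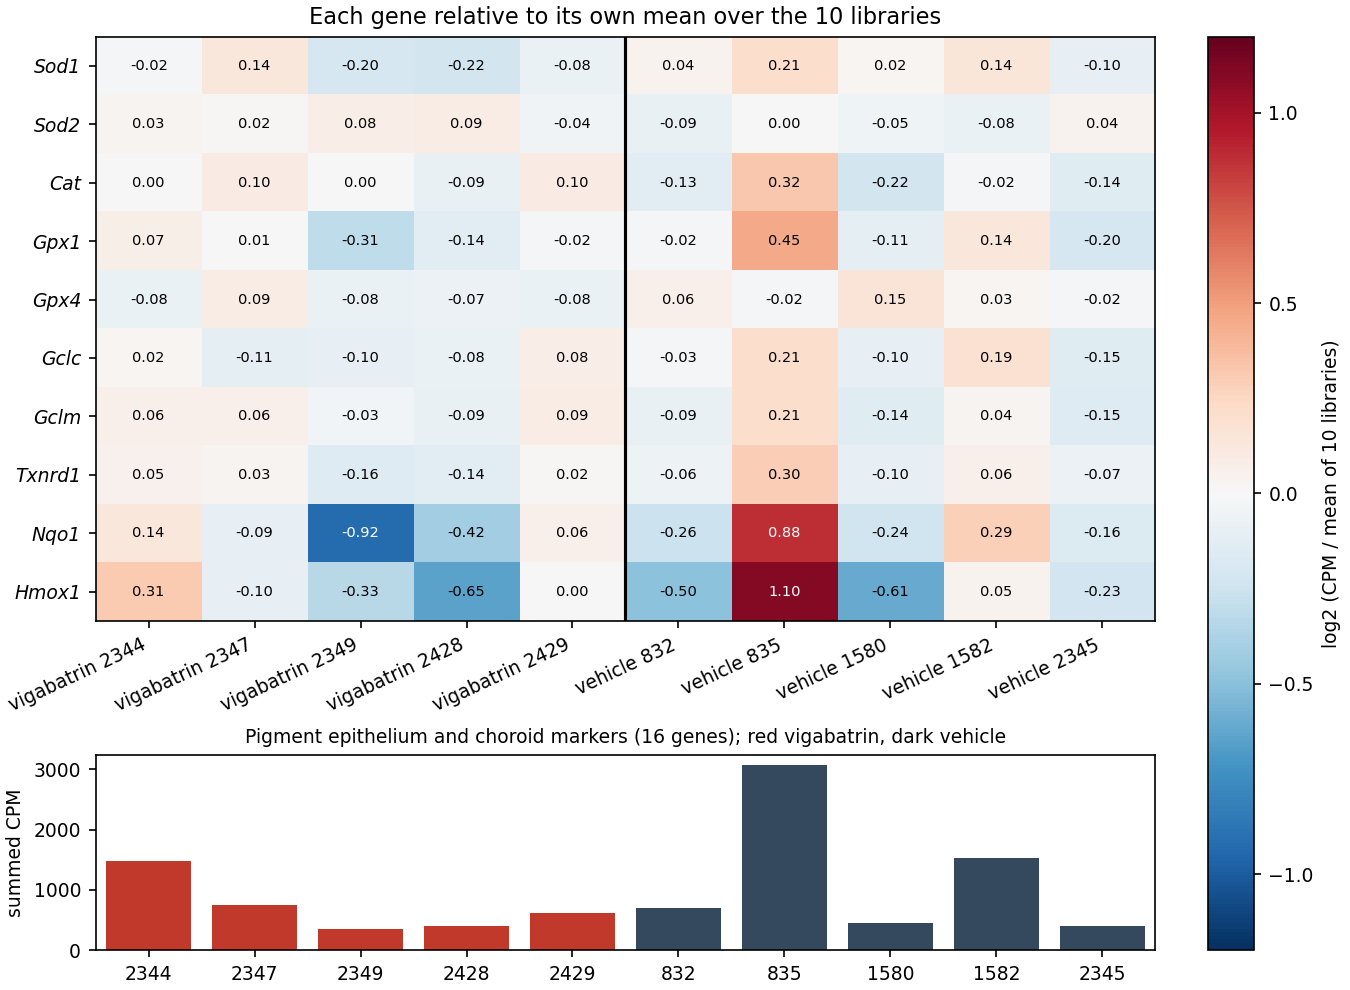
Top, log2 of each gene's CPM over its own mean across the 10 libraries, with vigabatrin libraries left of the line and vehicle libraries right of it. Bottom, summed CPM of 16 pigment epithelium and choroid markers in the same libraries. Vehicle 835 shows the highest values for 8 genes and the highest marker sum, 3075 CPM.

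The pathways around these genes were covered by 7 further lists with 81 tested genes. Of these, 0 were called by edgeR, 0 by DESeq2 and 0 by limma-voom, and 5 had an unadjusted p under 0.05, all lower after vigabatrin. These 5 are 6.17% of the 81, while 3.69% of tested genes were lower at that p and 7.36% differed in either direction. Of the 81, 64 had a log2 fold change below 0, with a median of -0.059. Without vehicle 835 that count was 43 of 81 and the median -0.004, and 42 of 81 when the 4 lens-rich libraries were left out. In the fit that sets vigabatrin against vehicle 2345 alone, 30 of 81 were below 0 and the median was 0.042. Leaving out any other single library gave 55 to 66 of 81 below 0.

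Among other enzymes that remove superoxide and peroxide, 11 of 12 genes were tested and all 11 had values below 0 (median -0.064). The median of this list was 0.0065 without vehicle 835 and 0.041 without the 4 lens-rich libraries. Prdx6, a peroxiredoxin that also acts on phospholipids, had 90.4 ± 8.39 CPM after vigabatrin and 108 ± 15.3 CPM in vehicle (SD, n = 5 each, log2 fold change -0.26, edgeR adjusted p = 0.605). Prdx2, a cytosolic peroxiredoxin, measured -0.088 on the log2 scale. Gpx3, the secreted glutathione peroxidase, had 193, 220.2, 28.1, 111 and 181 CPM in vigabatrin retina, against 38.2, 382, 137, 487 and 99.9 CPM in vehicle retina. It varied more between libraries than any of the 10 genes, with its 2 highest values in vehicle 1582 and 835 (log2 fold change -0.64, SE 0.66, adjusted p = 0.885). The log2 fold change of Gpx3 was -0.17 without vehicle 1582 and -0.38 without vehicle 835 or without vigabatrin 2349.

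Of 14 thioredoxin, glutaredoxin and methionine repair genes tested, 10 were below 0 and 4 above (median -0.034). Glrx5, a mitochondrial glutaredoxin of iron-sulfur cluster assembly, measured -0.14, Msrb1, a methionine sulfoxide reductase, -0.15, Txnip, the thioredoxin-interacting protein, -0.85 (SE 0.45), and Txn2, the mitochondrial thioredoxin, -0.059. The value of Txnip was -0.19 without vehicle 835, where it was highest at 33.6 CPM against a vehicle median of 7.56 CPM. Of 14 genes of glutathione supply and conjugation, 12 were below 0 (median -0.078), and the median was 0.0048 without vehicle 835 and -0.0049 without the 4 lens-rich libraries. Gsto1, an omega-class glutathione transferase, had 14.7 ± 5.65 CPM after vigabatrin and 30.3 ± 22.1 CPM in vehicle (SD, n = 5 each, log2 fold change -1.04, edgeR adjusted p = 0.631). Without vehicle 832 the log2 fold change of Gsto1 was -0.51, and without the 4 lens-rich libraries it was -1.61. The transferase Gstp1 measured -0.16, Slc3a2, the heavy chain of the cystine transporter, -0.21, and Ggt7, a gamma-glutamyltransferase family member, -0.072.

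Regulators of the Nrf2 pathway gave no called gene either. Nfe2l2 had 24.8 ± 0.801 CPM after vigabatrin and 24.9 ± 2.80 CPM in vehicle (SD, n = 5 each, log2 fold change -0.009, SE 0.072, edgeR adjusted p = 0.989). Keap1 had 52.2 ± 2.05 and 54.2 ± 3.41 CPM in vigabatrin and vehicle retina (log2 fold change -0.053) and Bach1 28.3 ± 0.986 and 28.8 ± 2.29 CPM (-0.027). The small Maf genes Maff and Mafk, partners of Nrf2, measured -0.93 (SE 0.37, edgeR adjusted p = 0.621) and -0.35 (SE 0.17, adjusted p = 0.701), and Maff averaged only 1.24 CPM after vigabatrin and 2.36 CPM in vehicle. Without vehicle 835 their log2 fold changes were -0.54 and -0.14. In this list of 12, 10 were below 0 (median -0.059). Park7, a redox-sensitive protein known as DJ-1, and Sqstm1, an autophagy receptor that binds Keap1, were the most abundant per length and measured -0.038 and -0.065, and Dpp3, a peptidase that also binds Keap1, -0.077.

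Genes that supply NADPH, the electron donor of both reductase systems, had a median of -0.007, with 6 of 10 below 0. Taldo1 and Tkt, of the pentose phosphate pathway, measured -0.12 and 0.056, Idh1, the cytosolic isocitrate dehydrogenase, 0.051 and Aldh1l1, a folate enzyme, -0.22. Of 10 genes of heme and iron handling, 7 were below 0 (median -0.063). The ferritin chains Fth1 and Ftl1 measured -0.076 and -0.12, Alas1, which starts heme synthesis, -0.16 and Blvrb, a biliverdin reductase, -0.29. Without vehicle 835 the log2 fold changes were -0.014 for Alas1, -0.0036 for Ftl1, -0.0099 for Fth1 and -0.18 for Blvrb, and the median of the list was -0.0045. In the selenoprotein list 10 of 11 genes were found and tested, and 8 were below 0 (median -0.065). Gpx1, Gpx4 and Txnrd1 all contain selenocysteine and depend on that machinery. Sepw1 had the lowest p of the list at -0.099 (edgeR adjusted p = 0.666), and the other selenoprotein genes of the named set were Vimp at -0.18, Selk at -0.055 and Selt at 0.093 (adjusted p between 0.711 and 0.861).

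**Figure D5:**
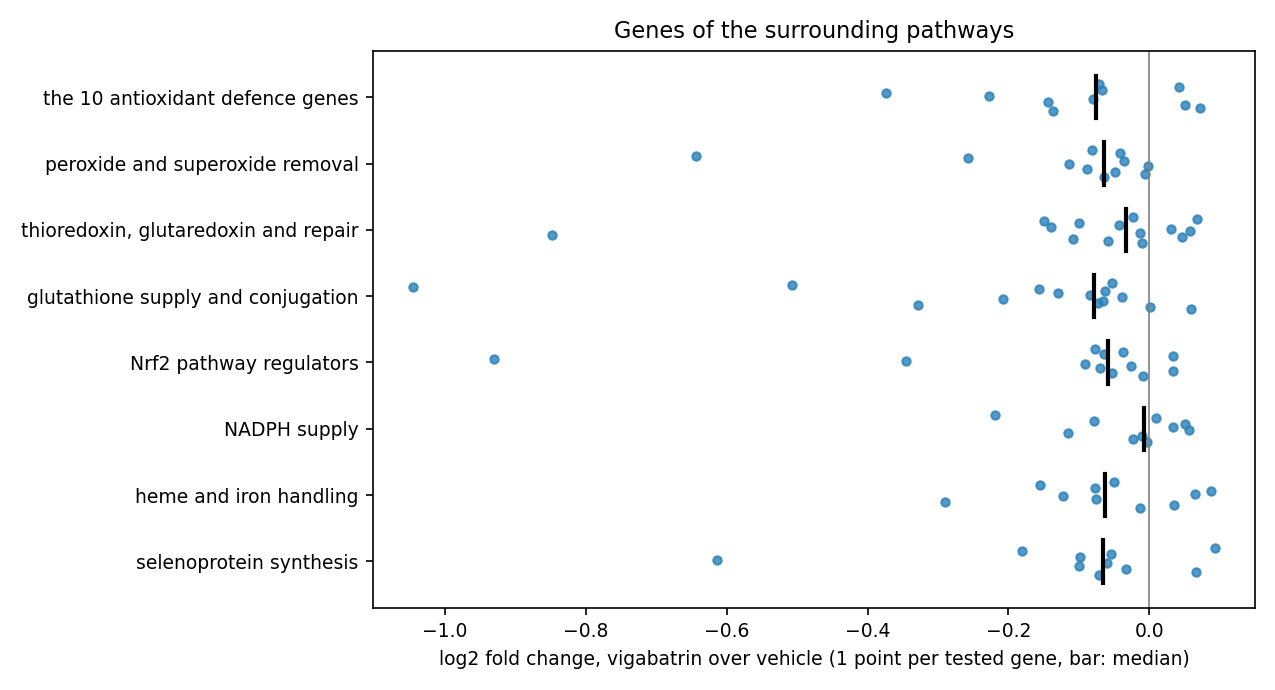
Log2 fold change, vigabatrin over vehicle, of each tested gene in the 10 antioxidant defence genes and the 7 pathway lists, with the median as a bar. The medians lie between -0.08 and 0, and no gene shown passed the test.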

How the data were processed

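The study measured RNA in 10 libraries of whole mouse retina, 5 vigabatrin and 5 vehicle. The authors deposited read counts for each Ensembl gene, and the submitters' processing notes name HTSeq 0.6.1, build mm10, DESeq2 and edgeR 3.16.5. No source used here gives the aligner, the annotation release or the strand setting. Levels per kilobase used the gene length column of the deposited table. A further column, 1 in number, fits no sample analysed here and was left out of every step.

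Library totals ran from 36056135 to 54052502 counts. After filterByExpr and TMM scaling, edgeR 4.0.16 under R 4.3.3 fitted glmQLFit with a group term alone and ran glmQLFTest, calling genes at an adjusted p of 0.05. Standard errors are the size of the log2 fold change over the square root of F, and 95% intervals use the degrees of freedom of that F. Exact permutation tests used log2 CPM with a prior count of 2. The procedure was checked on simulated counts. Counts of each pair of libraries in a group differed by more than counting error (chi-square over degrees of freedom at least 7.98), and each library was counted as 1 sample.

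Named genes are the 10 genes, and in each pathway list the 3 of smallest p and the 2 of highest level per length, with Nfe2l2, Keap1 and Bach1. Mafg is given beside Maff and Mafk, from the main fit only. Genes and lists were chosen with earlier results of these data known, so no p was adjusted over a list and no set test was run. The alternatives tried were scaling by library size, by upper quartile or by size factors of DESeq2 1.42.0, 2 other filters, DESeq2's Wald test, limma 3.58.1 with voom, each library left out, 4 lens-rich libraries left out, and terms for title numbers or for lens and pigment epithelium.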

Additional observations from a re-analysis of the deposited data

Results flagged for a closer look

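A gap between 1 library and its 4 fellows that filled more than 0.71 of the group's range was found in 7 of 90 groups looked at, and 4.5 such groups, or 1 in 20, would arise by chance. Vigabatrin 2347 was high for Gpx4 at 283 CPM, against 251 to 253 CPM in the other vigabatrin libraries. Vehicle 835 was the library far from the others in the remaining 6 groups. It was high for Hmox1 at 7.89 CPM (other vehicle libraries 2.42 to 3.80), Mafk at 17.3 CPM (8.84 to 10.4), Aldh1l1 at 23.3 CPM (14.9 to 17.1), Glrx5 at 35.1 CPM (28.7 to 30.5) and Blvrb at 4.16 CPM (2.86 to 3.20). For Selt it was low at 138 CPM, against 159 to 165 CPM in the other vehicle libraries.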

How the results depend on the processing

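No gene of the 10 and no gene of the pathway lists was called under any alternative run, and the order of the 10 genes by level was the same for all 10 with TPM. At an unadjusted p under 0.05, limma-voom, leaving out vigabatrin 2347 and leaving out vehicle 2345 found 2 of the 10 genes each. For all tested genes these settings gave 1972 of 17435, 1222 of 17607 and 1976 of 17620. Upper-quartile scaling, leaving out vehicle 835 and leaving out the 4 lens-rich libraries gave 1 of the 10 each. For all tested genes they gave 1292 of 17435, 1671 of 17536 and 1312 of 17393. No paired analysis was possible because the groups share no replicate numbers. Over all genes edgeR called 1 gene, against 87 with DESeq2's Wald test, 3 with limma-voom and 0 with library size only, with no filter, without the 4 lens-rich libraries, with a term for the title numbers or with lens and pigment epithelium levels as terms. Leaving out 1 library gave 0 to 39 genes, the 39 without vehicle 2345. With the title range, log2 fold changes of the other sign were found for Sod1 (0.028), Sod2 (-0.0040), Gpx1 (0.13), Hmox1 (0.11), Gclc (0.11) and Txnrd1 (0.030). The cause was not tested. Hmox1 was also above 0 with limma-voom (0.077), without the lens-rich libraries (0.095) and with tissue levels as terms (0.087). Over the libraries left out, Hmox1 ranged from -0.36 to 0.18 and Txnrd1 from -0.10 to 0.0022, both highest without vehicle 835. List medians with the title range were 0.14 for peroxide and superoxide removal, 0.19 for glutathione supply, 0.061 for heme and iron and 0.028 for selenoproteins. Named genes of the other sign with the title range were Gpx3 (0.55), Txnip (0.49), Slc3a2 (0.19), Gstp1 (0.081), Nfe2l2 (0.19), Sqstm1 (0.070), Park7 (0.087), Fth1 (0.081), Ftl1 (0.25), Alas1 (0.099), Sepw1 (0.028) and Selk (0.069). Those without the lens-rich libraries were Gpx3 (0.39), Txnip (0.064), Slc3a2 (0.030), Nfe2l2 (0.088), Sqstm1 (0.034), Ftl1 (0.020), Alas1 (0.016) and Selk (0.014). Over the libraries left out, Bach1 ranged from -0.049 to 0.023, Nfe2l2 from -0.056 to 0.039, Park7 from -0.072 to 0.0020, Slc3a2 from -0.29 to 0.0051, Sqstm1 from -0.098 to 0.013 and Tkt from -0.032 to 0.16. Of the 10 genes, depth limits Nqo1 and Hmox1 most, with 84 counts in the shallowest value for Nqo1 and 109 for Hmox1. Their counting errors of about 8.93% and 8.30% were below their spread between libraries in both groups.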
